A study of Mus musculus with 4 samples.

Results

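The genes described here are 9 amino acid transporter genes of blood stem and progenitor cells: Slc38a5, Slc38a1, Slc38a2, Slc7a1, Slc7a5, Slc7a11, Slc3a2, Slc1a5 and Slc43a1. They were selected on earlier results of these same arrays together with their place in the transporter families, and each was located as the non-control probes whose transcript maps through RefSeq to its symbol. All 9 were found, among 21154 genes with a named probe, and 13 probes report on them: 6 genes have 1 probe each and 3 genes have more. Because measured values chose the genes, their levels and differences are given as descriptions.

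Amino acid transporters are membrane proteins that set how much of each amino acid a cell can take up for protein synthesis, and dividing progenitors that build haemoglobin draw heavily on them. The Slc38 proteins carry small neutral amino acids such as glutamine together with sodium. Slc3a2 is the shared heavy chain (CD98) that brings light chains such as Slc7a5 and Slc7a11 to the cell surface. Shortage of amino acids raises translation of the transcription factor ATF4, which in many cell types turns on transporter genes and aminoacyl-tRNA synthetase genes.

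Gene expression was measured on 4 Agilent mouse microarrays of 1 colour, all on 1 slide, with 1 array in each of 4 groups. All groups share strain C57BL/6 and the genotype JAK2V617F/Ezh2Δ/Δ: marrow of JAK2V617F;Ezh2flox/flox;Cre-ERT2 mice had been grafted into lethally irradiated CD45.1+ wild-type hosts and Ezh2, the Polycomb methyltransferase gene, was then deleted. The hosts received the BET bromodomain inhibitor JQ1 for 2 weeks, or only its solvent DMSO. LSK cells (stem and multipotent progenitors without Lineage antigens and with c-Kit and Sca-1) and MEP cells (megakaryocyte and erythroid progenitors) were then sorted, which gave an LSK array and an MEP array for each of DMSO and JQ1 (called DMSO LSK and so on). There is no group with intact Ezh2 or without JAK2V617F. The ages and number of mice behind an array, the promoter that drives the Cre, and any host cells left after irradiation are not given in the sources used here.

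With 1 array in each group no difference has a replicate check, so no p-value is given. Levels are log2 signals relative to the 75th percentile of the array. Differences are log2 differences between 2 arrays, less that of the median measured gene, which itself was 0.06 for JQ1 against DMSO in LSK, 0.34 for JQ1 against DMSO in MEP, -0.22 between MEP and LSK with DMSO and 0.07 between them with JQ1. A gene is called higher or lower at a 2-fold difference on this centred scale. As a measure of array error, different probes of 1 gene differed with an SD of 0.26, 0.39, 0.37 and 0.28 log2 in these 4 comparisons, in the same order. This SD covers neither mice nor sorting nor labelling. Between 45.2% and 53.2% of probes were well above background, no spot was saturated, and no member probe carried an outlier mark.

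The DMSO MEP array stood apart. Its correlation with the other arrays across 23013 probes was 0.973 to 0.976, against 0.979 to 0.991 among the others, and its summed level of 14 immediate early and cell handling genes, all above background on every array, was 520 against 134 to 163 on the other 3 arrays. It is part of JQ1 against DMSO in MEP and of MEP against LSK under DMSO, neither of which can be formed without it, and the part of the handling genes in those results was not tested. MEP against LSK under JQ1 does not use it. The cell labels were checked against markers: Ly6a, which encodes the Sca-1 antigen of the gate, read -4.58 log2 between the MEP and LSK arrays with DMSO and -4.13 between those with JQ1, and the median of the erythroid markers was 2.82 log2 higher in MEP under DMSO and 3.80 under JQ1. The megakaryocytic median was 1.88 and 2.36 in the same comparisons. Some markers of other cells also read higher in MEP. Among them were the neutrophil genes S100a8 (3.13 and 3.12), S100a9 (3.81 and 2.82) and Camp (3.84 and 2.40). The stem cell surface gene Slamf1 (2.35 and 1.18) and the stromal gene Col1a2 (2.21 and 3.08) did so too. The medians of their lists were -0.19 and 0.92 for granulocytic and monocytic genes and -0.57 and -1.06 for stem and multipotent genes. For the 4 measured stromal and endothelial genes they were -0.18 and -0.12. Mast cell and basophil genes were mostly lower in MEP, with medians of -1.40 and -1.11 and 5 of 8 called lower under each treatment. The lowest was Mcpt4 at -9.085 and -7.867, while 2 of the 8 stood above the median gene. The part of these markers in the results was not tested.

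The promoters of Slc38a5 and Slc7a11 are shown because these genes had the widest ranges of the 9 over the 4 arrays, readings at background included. RefSeq promoters of the GRCm38.p6 build, 250 bases before to 50 after the gene's start, were matched for 6 of the 9 genes. Both are written 5′ to 3′ on the gene's strand. Capitals mark matches to searched motifs. In Slc38a5 these are the E-box CACGTG and the word AGATAG, of the kind that the GATA family of factors binds. In Slc7a11 they are TGATGCAA on either strand, the amino acid response element that ATF4 and C/EBP proteins bind, and the word TGATAG, of the same kind as in Slc38a5.

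Slc38a5, chrX:8271131-8271430, plus strand: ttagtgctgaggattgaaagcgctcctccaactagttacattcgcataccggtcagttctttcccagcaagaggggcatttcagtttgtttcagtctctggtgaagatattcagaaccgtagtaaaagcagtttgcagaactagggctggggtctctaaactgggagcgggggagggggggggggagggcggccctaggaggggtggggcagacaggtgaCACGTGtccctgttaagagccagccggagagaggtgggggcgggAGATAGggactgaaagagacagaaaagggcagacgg

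Slc7a11, chr3:50443564-50443863, minus strand: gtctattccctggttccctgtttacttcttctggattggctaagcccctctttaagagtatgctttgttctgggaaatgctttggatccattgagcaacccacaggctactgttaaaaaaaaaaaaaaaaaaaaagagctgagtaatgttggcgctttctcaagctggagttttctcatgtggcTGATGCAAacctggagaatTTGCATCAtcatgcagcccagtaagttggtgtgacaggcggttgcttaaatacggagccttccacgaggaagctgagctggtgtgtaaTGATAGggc

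In Slc38a5 the CACGTG match begins 30 bases before the start and the AGATAG match 14 bases after it. CCCCACCC, a CACC box word of the kind bound by erythroid Krüppel-like factors, lies on the minus strand 49 bases before the start and is not in capitals. Slc7a11 holds TGATGCAA on the plus strand 66 bases before the start and on the minus strand 47 bases before it, with no overlap, and its TGATAG match begins 41 bases after the start. Both strands of 32851 promoters of this length were searched. TGATGCAA is found in 0.89% of them, and only 2 promoters hold it in 2 copies. A GATA word, meaning AGATAA or the word AGATAG, or else TGATAA or the word TGATAG, is found in 29.76%, CACGTG in 7.15%, and CCACACCC or CCCCACCC in 13.05%. Among the other matched members, Slc43a1 has CACGTG 64 bases before its start and Slc3a2 has CCACACCC 7 bases after its start. A match is a description of the letters and not a measured site.

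Slc38a5, a sodium-coupled carrier of glutamine, histidine and serine, separated the cell types most widely. It read -0.21 with DMSO and -1.23 with JQ1 in LSK, and 3.98 with DMSO and 5.10 with JQ1 in MEP. Both MEP arrays were far above both LSK arrays, and its linear signal was 182 and 104 on the LSK arrays against 5162 and 8011 on the MEP arrays. Relative to the median gene it was 21.2-fold higher in MEP than in LSK under DMSO (log2 4.41), the 7th highest of 12407 measured genes, and 76.8-fold higher under JQ1 (log2 6.26), the 2nd highest of 12262. These are descriptions of a gene that was selected with such values known. Its difference with JQ1 had opposite signs in the cell types: 2.12-fold lower in LSK (log2 -1.08) and 1.72-fold higher in MEP (log2 0.78). The 2-fold call in LSK ended under 5 of 10 alternative settings. Among these, the setting with brighter genes only did not measure Slc38a5, and the others gave values up to -0.45. In order of level the arrays run JQ1 LSK, DMSO LSK, DMSO MEP, JQ1 MEP. The gap between the LSK arrays is over 4 times the SD between probes of a gene in that comparison, and the gap between the MEP arrays is near 2 times its SD. That SD pools genes of all signal levels. On the LSK arrays Slc38a5 lay below the median measured gene, at -1.85 with DMSO and -2.94 with JQ1 relative to it. A single probe reports on Slc38a5, so no other probe can be set beside it.

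As a list, the erythroid markers stood higher in MEP than in LSK, as Slc38a5 did. Of the 12 listed, 10 were above background on each LSK array, 11 on DMSO MEP and 12 on JQ1 MEP, and their summed linear level was 32.8 with DMSO and 33.7 with JQ1 in LSK, and 179 and 269 in MEP. Alas2, the erythroid haem synthesis enzyme gene, was above background only on JQ1 MEP. With JQ1 the erythroid median was -0.22 in LSK and 0.33 in MEP, the same signs as Slc38a5, but the megakaryocytic, granulocytic and monocytic, T and NK, and stromal lists had these signs too, so the match is not particular to the erythroid list. The erythroid carbonic anhydrase gene Car1 was the only 1 of the 10 measured in LSK to be called, at -1.11, while in MEP the transcription factor genes Gata1 and Klf1 read 0.72 and 0.75 and the globin gene Hba-a1 read 1.45. In bulk sorted cells, fewer cells of a type and less RNA per cell cannot be told apart, and the part of the erythroid content in the Slc38a5 values was not tested.

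**Figure D1:**
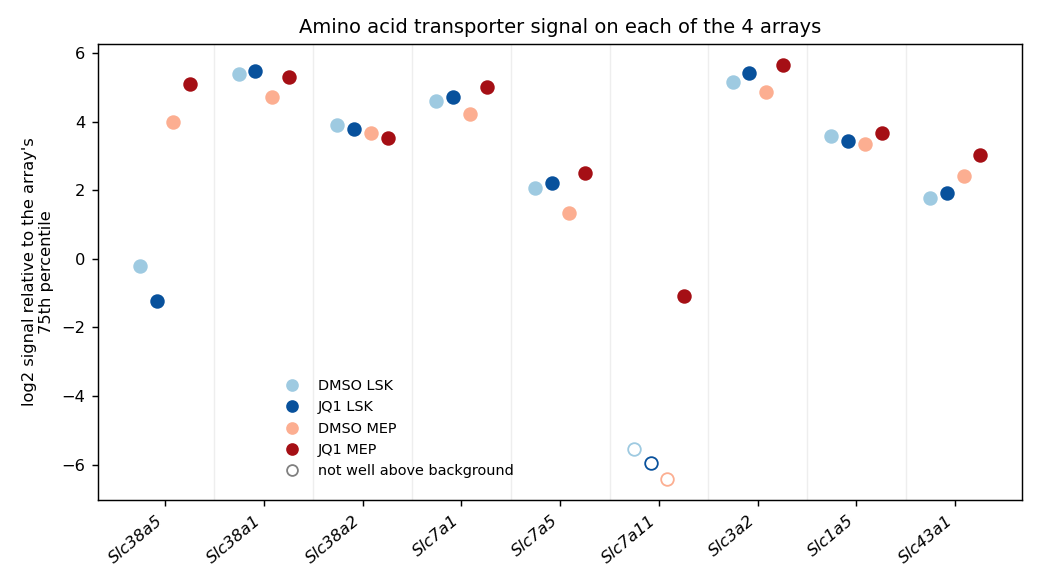
Level of each of the 9 transporters on each array, in log2 signal relative to the array's 75th percentile; 1 point is 1 array and an open point is not well above background. Slc38a5 lies between -1.23 and -0.21 on the LSK arrays and at 3.98 and 5.10 on the MEP arrays, and Slc7a11 is above background on JQ1 MEP only; levels of different genes come from different probes and are not to be compared.

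The other Slc38 genes had narrow ranges, 0.53 log2 for Slc38a1 and 0.50 for Slc38a2 over the 4 arrays once each array's median gene was set to 0, against 6.28 for Slc38a5. Slc38a1, a glutamine carrier of many dividing cells, read 5.39 with DMSO and 5.47 with JQ1 in LSK, and 4.73 with DMSO and 5.32 with JQ1 in MEP. The DMSO MEP array was lowest and the other 3 arrays lay within 0.2 log2 of each other. Its centred differences were 0.02 with JQ1 in LSK, 0.25 with JQ1 in MEP, -0.44 between MEP and LSK with DMSO and -0.22 with JQ1. All 3 of its probes gave the DMSO MEP array the lowest level, with differences of 0.25, 0.34 and 0.60 with JQ1 in MEP, but scaling to spike-in probes without centring turned the brightest probe's value to -0.27 there and its value between MEP and LSK with DMSO to 0.47.

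Slc38a2, the carrier that amino acid shortage induces in cultured cells, read 3.90 with DMSO and 3.79 with JQ1 in LSK, and 3.66 with DMSO and 3.53 with JQ1 in MEP. Each JQ1 array read below its DMSO array and each MEP array below its LSK array, all by small amounts. Its centred differences were -0.17 with JQ1 in LSK, -0.47 with JQ1 in MEP, -0.02 between MEP and LSK with DMSO and -0.33 with JQ1. In MEP it is the member with the lowest JQ1 difference, and scaling to the median probe without centring turned that value to 0.28.

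Slc1a5, the exchanger that brings glutamine into proliferating cells in return for other neutral amino acids, had the narrowest range of the 8 members measured on all arrays. It read 3.57 with DMSO and 3.43 with JQ1 in LSK, and 3.36 with DMSO and 3.66 with JQ1 in MEP. In none of the 4 comparisons did it pass the SD between probes of a gene. The centred differences were -0.21 with JQ1 in LSK, -0.03 with JQ1 in MEP, 0.00 between MEP and LSK with DMSO and 0.16 with JQ1. Between MEP and LSK with DMSO it lay close to the median gene, ranked 6202 of 12407 from the highest. Its other probe read 1.81, 1.72, 1.75 and 1.74 in the same order of arrays.

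The CD98 heavy chain and its light chains were next. Slc3a2, the heavy chain, read 5.17 with DMSO and 5.42 with JQ1 in LSK, and 4.87 with DMSO and 5.67 with JQ1 in MEP. The JQ1 arrays were above the DMSO arrays in both cell types, by 0.19 in LSK and 0.46 in MEP after centring. Without centring, the MEP value was -0.07 with spike-in scaling, where the median gene itself lay at -0.53. MEP against LSK gave -0.08 under DMSO and 0.17 under JQ1, both within the SD between probes.

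Slc7a5, the light chain that imports leucine and other large neutral amino acids, read 2.07 with DMSO and 2.23 with JQ1 in LSK, and 1.35 with DMSO and 2.50 with JQ1 in MEP. By this brightest probe the DMSO MEP array was lowest and JQ1 MEP highest, with differences of 0.10 with JQ1 in LSK, 0.82 with JQ1 in MEP, -0.50 between MEP and LSK with DMSO and 0.20 with JQ1. The other probe on the same transcript read -0.05, -0.41, 0.51 and -0.64 in that order of arrays. It put DMSO MEP highest and JQ1 MEP lowest, with a difference of -1.49 with JQ1 in MEP and 0.78 between MEP and LSK with DMSO. The probes of Slc7a5 thus disagree in sign in both comparisons that use the DMSO MEP array, and their mean gave -0.30 with JQ1 in MEP. No direction is given for Slc7a5.

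**Figure D2:**
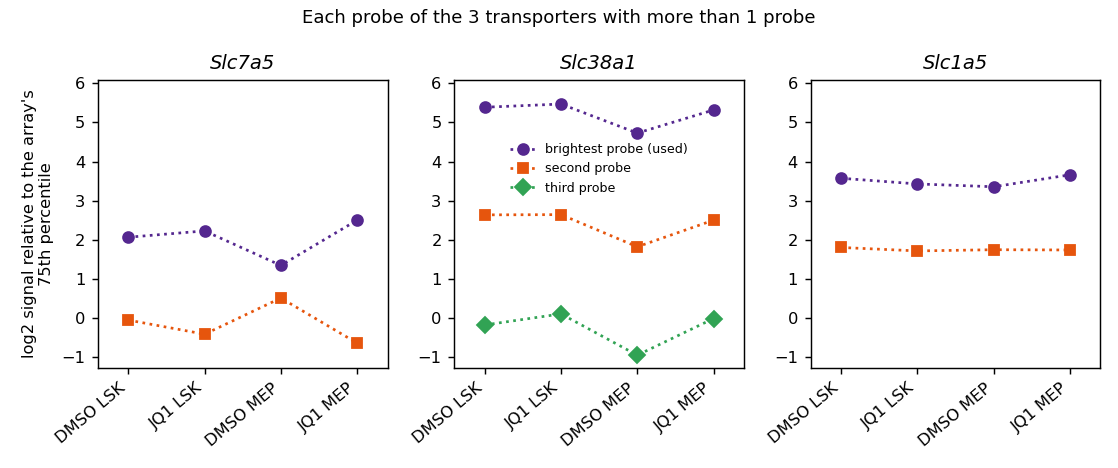
Level of every probe of the 3 transporters with more than 1 probe, in log2 signal relative to the array's 75th percentile, on the 4 arrays; circles are the brightest probe, which was used. The probes of Slc38a1 run in parallel with DMSO MEP lowest, while those of Slc7a5 run in opposite directions at DMSO MEP (1.35 and 0.51) and JQ1 MEP (2.50 and -0.64).

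Slc7a11, the light chain that imports cystine for glutathione synthesis in exchange for glutamate, was detected on 1 array. It was not well above background on DMSO LSK, JQ1 LSK and DMSO MEP, and read -1.07 on JQ1 MEP, a linear signal of 111 with a software error of 13.8%. Relative to the median gene it was at least 7.13-fold higher in JQ1 MEP than in DMSO MEP and at least 6.33-fold higher than in JQ1 LSK. These bounds set the other array at the lowest signal that any probe had there while well above background. Of the 245 genes above background in MEP only with JQ1, 148 had a bound of 2-fold or more and Slc7a11 was the 21st highest. In MEP against LSK under JQ1 it was the 68th highest of 532. It is 1 of 195 genes, 0.92% of the 21154, that were above background on JQ1 MEP alone, and its promoter is the only 1 of the 7 matched promoters of members that holds TGATGCAA.

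Slc7a1, the carrier of arginine and lysine, read 4.60 with DMSO and 4.72 with JQ1 in LSK, and 4.23 with DMSO and 5.02 with JQ1 in MEP. As with Slc3a2, DMSO MEP was lowest and JQ1 MEP highest. The centred differences were 0.06 with JQ1 in LSK, 0.45 with JQ1 in MEP, -0.16 between MEP and LSK with DMSO and 0.23 with JQ1. The JQ1 value in MEP is a little above the SD between probes there, 0.39. It was -0.07 with spike-in scaling without centring, where the median gene itself lay at -0.53.

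Slc43a1, a carrier that lets leucine and related amino acids pass without sodium and that has been studied in red cell formation in zebrafish and mouse, was higher on both MEP arrays. It read 1.77 with DMSO and 1.93 with JQ1 in LSK, and 2.42 with DMSO and 3.03 with JQ1 in MEP. The arrays of each cell type did not overlap with those of the other. MEP against LSK gave 0.87 (1.82-fold) under DMSO and 1.03 (2.04-fold) under JQ1, each more than 2 times the SD between probes. With JQ1 it read 0.10 in LSK and 0.28 in MEP, both within that SD. Over 11 settings of the processing, the main one included, the difference between MEP and LSK under JQ1 ran from 0.80 to 1.22, so its 2-fold call depends on the setting.

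**Figure D3:**
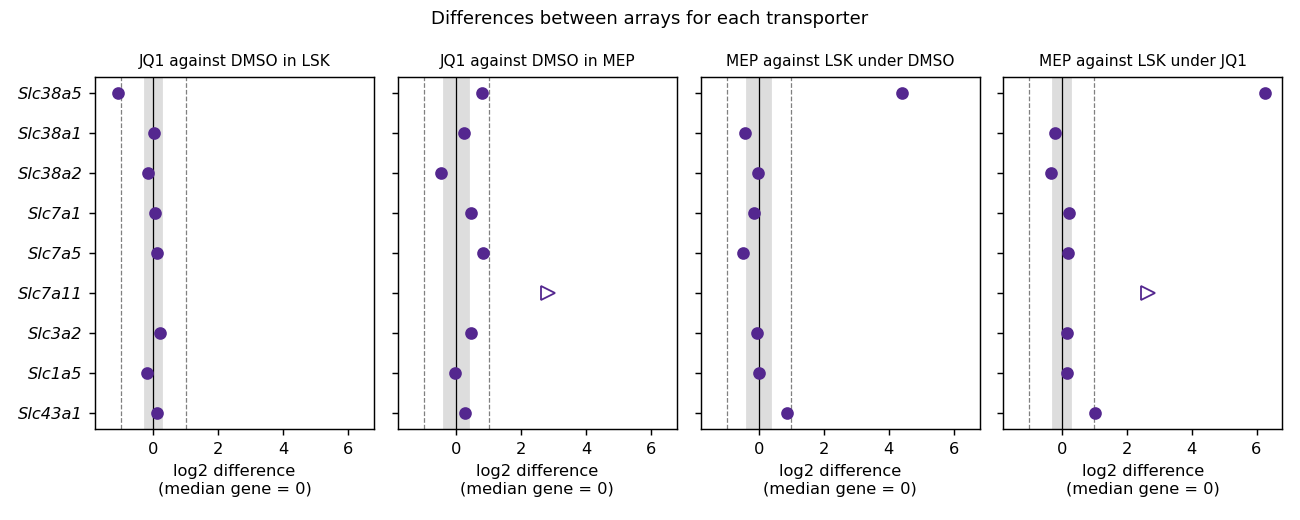
Log2 differences of the 9 transporters in the 4 comparisons, relative to the median measured gene at 0; points are measured on both arrays, open triangles are lower bounds, the grey band is 1 SD between probes of a gene on either side of 0 and broken lines mark 2-fold. Slc38a5 stands at -1.08, 0.78, 4.41 and 6.26 while the other measured members lie between -0.50 and 1.03.

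Counted by comparison, 8 of the 9 members were measured in each. With JQ1 in LSK, 1 was called lower (Slc38a5) and 0 higher, beside 3.22% of 12328 genes called lower and 0.543% higher. The members' median was 0.04, where the median of all genes is 0 by construction, and 5 of 8 were above it. The called member stood at -1.08 and the next, Slc1a5, at -0.21. With JQ1 in MEP, 0 members were called in either direction, beside 0.98% of 12549 genes higher and 5.77% lower. Their median was 0.365 with 6 of 8 above the median gene, and the nearest to a call were Slc7a5 at 0.82 by its brightest probe alone, since its probes disagree in sign, and then Slc38a5 at 0.78. Under spike-in scaling without centring that median was -0.16, where the median gene itself lay at -0.53.

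In MEP against LSK under DMSO, 1 member was called higher (Slc38a5) and 0 lower, beside 5.68% of 12407 genes higher and 4.32% lower. The members' median was -0.05, with Slc43a1 next below the call at 0.87. Under JQ1, 2 members were called higher (Slc38a5 and Slc43a1) and 0 lower, beside 3.94% of 12262 genes higher and 4.01% lower, with a median of 0.19. Each array enters 2 of the 4 comparisons, so their values are set side by side only. The members were selected with these values in view, and nothing is read from the counts.

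Taking the JQ1 difference in MEP less that in LSK for each gene, Slc38a5 stood at 1.87, and 57 of 12016 genes measured on all 4 arrays were at least that high. Slc7a5 read 0.72 by its brightest probe, Slc7a1 0.40, Slc3a2 0.26, Slc38a1 0.23, Slc43a1 and Slc1a5 0.18 each, and Slc38a2 -0.30. The members' median was 0.25, against 0.01 for all genes. Without centring, this members' median was 0.74 with scaling to the median probe and -0.91 with spike-in scaling.

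Of 43 other amino acid transporter genes, 25 to 29 were measured in a comparison, and their medians stayed between -0.08 and -0.01. With JQ1 in LSK 0 of 25 were called higher and 2 lower: Slc15a3, a lysosomal histidine and peptide carrier, at -1.82 and Slc66a1, a lysosomal exporter of cationic amino acids, at -1.002. With JQ1 in MEP 0 of 29 were called higher and 2 lower: Slc38a6 at -1.56 and Slc38a9, the lysosomal arginine sensor, at -1.002. In MEP against LSK under DMSO, Slc25a38, the mitochondrial glycine carrier that haem synthesis needs, was called higher at 1.17, and Slc15a3 and the leucine carrier gene Slc43a2 lower, each at -1.08, of 25 measured. Under JQ1 Slc25a38 was again higher at 1.30, as was Slc7a4 at 1.13, and 0 of 27 were lower. Genes above background on the MEP array alone had bounds. Slc6a15 was at least 3.22-fold higher in MEP under DMSO and at least 3.79-fold under JQ1. Slc38a6 was at least 3.44-fold higher under DMSO, but under JQ1 it was measured on both arrays and read -0.25. Slc43a2, the close relative of Slc43a1, read lower on the MEP arrays (0.37 and 1.00) than on the LSK arrays (1.66 and 1.82), the opposite order to Slc43a1.

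The cytosolic aminoacyl-tRNA synthetases, which load amino acids onto tRNA, were all measured, and none of the 20 was called in any comparison. Their medians were 0.11 with JQ1 in LSK, 0.49 with JQ1 in MEP, -0.03 between MEP and LSK with DMSO and 0.26 with JQ1. With JQ1 in MEP 19 of 20 stood above the median gene, from the alanine enzyme gene Aars at 0.77 down to Eprs, for glutamate and proline, at -0.62 as the exception. In LSK 18 of 20 did, from -0.07 for Dars to 0.39 for Yars. Between MEP and LSK the extremes were Aars at -0.41 and Rars at 0.27 under DMSO, and Eprs at -0.76 and Hars at 0.54 under JQ1. Without centring, the median with JQ1 in MEP was -0.03 under spike-in scaling, with 10 of 20 above 0, and 1.24 under scaling to the median probe, with 17 of 20 past 2-fold higher. The median gene among the brighter 6275 genes in MEP itself lay at 0.435 before centring, 0.10 above that of all 12549, and against those brighter genes the synthetase median was 0.43 over 17 genes and the members' median 0.27 over 8.

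Of 30 amino acid response and ATF4 target genes on the array, 28 or 29 were measured. With JQ1 in LSK the median was -0.05, with Vldlr, a lipoprotein receptor gene, called higher at 1.37 and the secreted stanniocalcin gene Stc2 lower at -1.45. With JQ1 in MEP the median was 0.03 with 0 called higher and 1 lower, Ppp1r15a (GADD34, a phosphatase subunit of the stress response), at -1.95. In MEP against LSK under DMSO the median was 0.00. Called higher were Ppp1r15a at 2.32, Nupr1 at 2.09, Ddit3 (CHOP) at 1.39, Gadd45a at 1.27 and Atf4 itself at 1.12, and called lower were Trib3 at -1.11 and Vldlr at -1.06. Atf4 lies outside the 4 that the naming rule takes and was added after its value was seen. The handling and immediate early genes had a median of 1.79 in that comparison, with 12 of 14 called higher, and of -2.19 with JQ1 in MEP, with 13 of 14 called lower, and their part in these stress gene values was not tested. Under JQ1, without the DMSO MEP array, the median was 0.14, Nupr1 (2.81) and the asparagine synthetase gene Asns (1.29) were called higher, and Vldlr lower (-2.81). Cth, which makes cysteine from cystathionine, was above background in MEP and not in LSK, and was at least 3.63-fold higher under DMSO and at least 4.53-fold under JQ1. Asns read 5.01 with DMSO and 4.93 with JQ1 in LSK, and 5.29 with DMSO and 6.29 with JQ1 in MEP, so JQ1 MEP was its highest array.

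The glutathione and NRF2 target list was included beside Slc7a11, and 19 of its 20 genes were measured. Its median was 0.08 with JQ1 in LSK, where the transferase gene Mgst1 was called lower at -1.09, and 0.29 with JQ1 in MEP, where Gstm1, a cytosolic glutathione transferase gene, was called higher at 1.14. In MEP against LSK the quinone reductase gene Nqo1 was called higher under DMSO (1.72) and JQ1 (2.33), Mgst1 was lower under DMSO (-1.12), and the medians were 0.03 and 0.29. The mTORC1 and amino acid sensing list, the pathway that reads leucine and arginine supply, had medians of 0.03, -0.11, 0.04 and -0.04 over 33 or 34 of 35 genes. With JQ1 in LSK none of 33 was called, from Tsc2 at -0.48 to Deptor at 0.69. It held 1 call in each of the other comparisons: Rragb lower with JQ1 in MEP (-1.05), Sesn3 lower in MEP under DMSO (-1.01) and Castor1, an arginine sensor gene, higher in MEP under JQ1 (1.04).

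**Figure D4:**
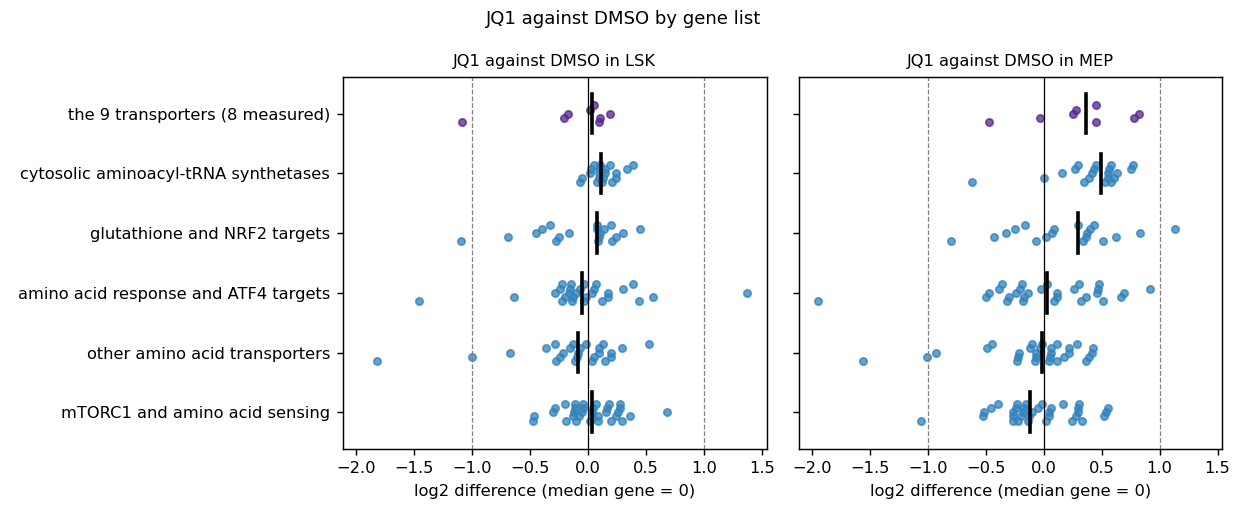
JQ1 against DMSO in LSK and in MEP for the 9 transporters and 5 lists of related genes, as log2 difference with the median measured gene at 0; 1 point is 1 gene, bars are list medians and broken lines mark 2-fold. The synthetases sit at a median of 0.11 in LSK and 0.49 in MEP with no gene past 2-fold.

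The genes nearest to Slc38a5 and Slc43a1 in their profile over the 4 arrays were taken by root mean square distance of the mean-subtracted levels, among 2305 genes measured on all arrays with a range of at least 1 log2. For Slc38a5 these were Sphk1 at 0.20 log2, Aqp1 at 0.23, Atp1b2 at 0.30, Col5a1 at 0.34 and Tspo2 at 0.40. Aqp1 encodes the water channel of the red cell membrane and Sphk1 makes sphingosine phosphate. Sphk1 read -0.94 with JQ1 in LSK and 0.56 in MEP, Aqp1 -0.90 and 0.33, and Atp1b2 -0.74 and 1.05, while Col5a1 and Tspo2 were below the median gene in both. For Slc43a1 the nearest were Ank at 0.03, Mtfp1 at 0.03, the transcription factor gene Klf3 at 0.05, Unc119 at 0.05 and Phactr4 at 0.05. Likeness over 4 arrays of 1 slide is a description. Slc7a11 had the next widest range after Slc38a5 but was not measured on all arrays, so no likeness was taken for it.

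**Figure D5:**
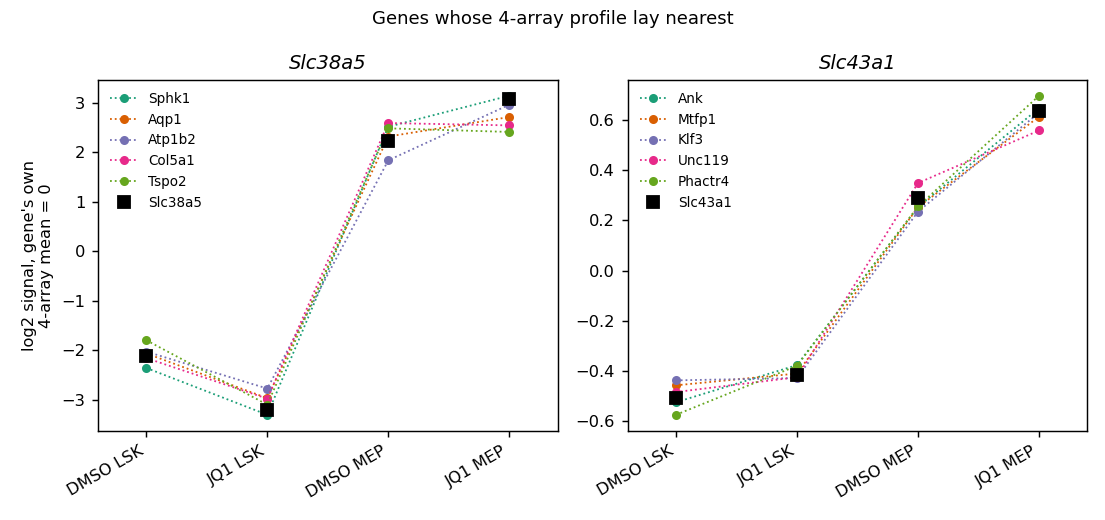
Profiles over the 4 arrays of Slc38a5 (left) and Slc43a1 (right), black squares, with the 5 nearest genes each, in log2 signal with the mean over the 4 arrays set to 0. The neighbours of Slc38a5 share the step between LSK and MEP but not all share its higher level on JQ1 MEP than on DMSO MEP.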

How the data were processed

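Per the file headers, signals came from Agilent Feature Extraction 10.7.1.1 (the authors used its protocol GE1_107_Sep09) and the array design was 028005, placed on mm9. The deposited scanner output gives a background-subtracted, detrended intensity per spot, and marks of other kinds (well above background, outlier, saturated) that served as filters. The authors' deposited table holds a linear ratio, which matched the scanner intensity divided by 1 constant per array within 1% for probes with a table value above 1.

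Intensities were averaged per probe on the log2 scale, less the array's 75th percentile. Probes were named through RefSeq (GRCm38.p6): 28026 of 55681 (50.3%) got 1 symbol. Each gene took its brightest probe and was measured where that probe was well above background with no outlier mark on both arrays. No test was made, since each group has 1 array; the number of arrays limits the precision.

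The members and lists (6 of pathways, the members included, and 9 of markers) were chosen with earlier results of these data known. Named were all members and, per pathway list and comparison, up to 4 called genes in each direction or, with none called, the extremes, with the 5 genes of nearest profile for the members of widest range; marker genes, and genes with bounds, are examples picked after their values were seen. Listed genes Pycr1, Ly6c2 and Hspa1b had no named probe. Normexp (offset 50) used the median spot signal, since the mean is not among the columns used here. The fit of differences was tested on simulated data. Python 3.11.15, numpy 2.4.6, pandas 2.3.3, matplotlib 3.10.9, R 4.3.3 and limma 3.58.1 were used.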

Additional observations from a re-analysis of the deposited data

Results flagged for a closer look

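Slc38a5 differed with JQ1 in opposite directions in the cell types, at -1.08 log2 in LSK and 0.78 log2 in MEP relative to the median gene. This is 1 array against 1 array in each cell type, and the difference between the cell types was not tested. Of 12016 genes measured in both, 5.54% read beyond the SD between probes in opposite directions. The LSK value stayed below 0 in 10 settings that could give it, between -1.09 and -0.45, and the MEP value stayed above 0 in 11, between 0.26 and 1.54.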

How the results depend on the processing

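No paired analysis was possible because each group has 1 array, and for the same reason no replicate could be left out. Of 130 summary values over 10 alternatives, 109 were classed as kept and 21 as moved. Of 319 single gene values, 275 were classed as kept and 44 as moved, and 0 called values changed sign. A value classed as kept could still change. Uncentred, the members' median with JQ1 in MEP went from 0.365 to 0.702, and Slc38a5 there went from 0.783 to 1.12. The call of Slc38a5 as lower with JQ1 in LSK was lost (0 members) with scaling to the median probe, spike-in scaling, normexp and no background filter. With brighter genes only there were also 0 members, because Slc38a5 was not measured there. With JQ1 in MEP the members called higher were 2 uncentred, 6 with scaling to the median and 1 with no background filter, which is Slc7a11. In MEP against LSK the members called higher were 2 under DMSO with spike-in scaling and 2 with no background filter, and 1 under JQ1 with spike-in scaling, quantile normalization, normexp and brighter genes only. The members' median moved to 0.296 (LSK), 1.117 (MEP) and 0.741 (MEP less LSK) with scaling to the median, and to 0.671, -0.16 and -0.911 with spike-in scaling, which also gave 0.861 in MEP against LSK under DMSO. Uncentred scalings shift every gene of a comparison by 1 number: under spike-in scaling the median gene lay at 0.63, -0.53, 0.91 and -0.23 in the 4 comparisons, and under median scaling at 0.26, 0.75, -0.32 and 0.19.

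Counts over all genes, given as higher and lower, moved as follows. With JQ1 in LSK, 67 and 397 became 153 and 256 with median scaling, 847 and 135 with spike-in scaling, 8 and 173 with normexp, 716 and 1275 with no filter and 4 and 71 in brighter genes. With JQ1 in MEP, 123 and 724 became 373 and 367 uncentred, 3037 and 172 with median scaling, 35 and 2202 with spike-in scaling, 295 and 478 with quantile normalization, 52 and 310 with normexp, 595 and 2304 with no filter and 16 and 156 in brighter genes. Under DMSO, 705 and 536 became 481 and 905 uncentred, 404 and 1172 with median scaling, 5303 and 75 with spike-in scaling, 421 and 224 with normexp, 2171 and 1189 with no filter and 226 and 117 in brighter genes. Under JQ1, 483 and 492 became 656 and 327 with median scaling, 341 and 840 with spike-in scaling, 290 and 249 with normexp, 1285 and 1607 with no filter and 128 and 132 in brighter genes. Signal over background limits Slc7a11 on 3 arrays and 14 to 18 of the 43 other transporters in each comparison.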

Other observations

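Among 133 genes of the pathway lists measured in both cell types, Slc38a5 and 6 others read beyond the SD between probes in opposite directions with JQ1 in LSK and MEP, in that order: Castor2 (0.28 and -0.46), Deptor (0.69 and -0.40), G6pdx (-0.27 and 0.62), Gsr (-0.39 and 0.84), Slc16a10 (-0.36 and 0.41) and Srxn1 (-0.45 and 0.40). These 7 are 5.26% of the 133, against 5.54% of 12016 genes by the same rule. None of these differences was tested, and the shift of the median gene under spike-in scaling, 0.63 in LSK, exceeds in size each value below 0 there among the 6 others. Srxn1, Gsr and G6pdx serve the reduction of oxidized glutathione, peroxiredoxin and NADP, and Slc16a10 carries aromatic amino acids.

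Markers of other cells also differed between the arrays. B lineage genes were lower with JQ1 in both cell types, with medians of -2.45 (8 of 8 called) in LSK and -1.85 (6 of 8) in MEP, and their summed level was 191 with DMSO and 45 with JQ1 in LSK, and 67.1 and 27.4 in MEP. With JQ1 in LSK and MEP the medians were 0.35 and -0.06 for stem and multipotent genes, -0.36 and 0.15 for megakaryocytic genes, -0.53 and 0.41 for granulocytic and monocytic genes, -0.61 and 0.27 for T and NK genes, -0.39 and -0.14 for mast cell and basophil genes, and -0.47 and 0.33 for the 4 measured stromal and endothelial genes. The handling and immediate early genes read -0.20 and -2.19.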
